A study of Homo sapiens with 24 samples.

Results

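The proteasome genes described here are the protein-coding genes whose names begin with PSMA, PSMB, PSMC, PSMD, PSME, PSMF or PSMG followed by a digit, with hyphenated names left out. The rule found 49 of the 19836 genes of the 72 h table, and all 49 identifiers were among the 61541 genes of the 48 h table. Of these, 48 passed the filter on low values at both times. The remaining one, PSMB11, which encodes the catalytic subunit of the thymus proteasome, was listed at 0 in every 72 h library and reached at most 1 in a 48 h library. The 48 genes tested comprise 14 standard subunits of the 20S core, 3 immunoproteasome subunits, 17 subunits of the 19S cap, 4 activators, 1 inhibitor, 7 assembly chaperones, the testis subunit PSMA8, and PSMC3IP. PSMC3IP enters by its name alone: it encodes a meiotic recombination factor and is not a subunit.

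RNA-seq was performed on U2932 cells, a line grown from a human diffuse large B-cell lymphoma, to compare cells given a nucleic acid reagent directed at MYC with cells given PBS. The groups at 48 h were 4 libraries labelled PNA2, 4 labelled siRNA and 6 PBS controls, and at 72 h 5 libraries labelled PNA2 and 5 PBS controls. PNA2 is a gamma PNA, a peptide nucleic acid with bases on a peptide-like backbone, added to the cells at a labelled dose of 8 mM, a unit that is in doubt. The siRNA was given at 500 nM by electroporation, and no electroporated control was named, so electroporation and siRNA cannot be told apart. The labels give both reagent groups the genotype of a c-myc knockdown and the controls that of wild type. They enter the siRNA libraries under cell line names that differ from U2932 in the last digit, although their treatment text names U2932. The labels do not say whether replicates were separate cultures, so p-values measure the spread between these libraries, which may be technical. The extraction text names 48 h for every library, and the 72 h time is taken from titles and time entries.

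The proteasome degrades proteins that carry ubiquitin chains. Its 20S core is a barrel of alpha rings, which gate the entrance, and beta rings, which hold the proteolytic sites of PSMB5, PSMB6 and PSMB7, and the 19S cap recognises, unfolds and feeds in the substrate through a ring of ATPases (PSMC genes) and a base and lid (PSMD genes). In lymphoid cells and after interferon, PSMB8, PSMB9 and PSMB10 replace PSMB5, PSMB6 and PSMB7, giving the immunoproteasome, and the PA28 activators PSME1 and PSME2 cap the core, an arrangement known for supplying peptides to MHC class I. The standard genes are known to be induced together by the transcription factor NFE2L1 when proteasome activity falls.

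MYC, the named target, was lower in the libraries labelled siRNA (3588 to 4184, scaled values) than in PBS libraries at 48 h (5453 to 7648), and by limma the log2 difference was -0.81 ± 0.10 (SE), adjusted p = 0.000318. In the libraries labelled PNA2 MYC was not lower: it ran from 7181 to 8907 at 48 h against the same PBS libraries, a log2 change of 0.24 ± 0.09 (SE), adjusted p = 0.096 by limma. At 72 h it was 2007, 2032, 459.9, 1966 and 1809 in the libraries labelled PNA2, against 1121, 2321, 2035, 2845 and 826 in PBS libraries. The label of a MYC knockdown is therefore not borne out by MYC RNA for PNA2, except in its 72 h replicate 3, and each direction given for PNA2 is that of the libraries so labelled. At 72 h the PNA2 libraries had between 11.25 M and 13.69 M recovered reads, and the PBS libraries between 8.22 M and 13.28 M. Adjusted values at 48 h summed to 14.88 M to 16.03 M in PNA2, 12.63 M to 16.17 M in siRNA and 11.12 M to 14.46 M in PBS libraries. All 6 B-cell markers were expressed, and of 22 markers of T, natural killer, myeloid, erythroid, stromal and epithelial cells between 1 and 4 reached a mean of 10 in a group. The share of counts from mitochondrially encoded genes was 7.30% ± 1.01 in PNA2 and 4.35% ± 0.320 in PBS libraries at 72 h (SD, n = 5 each). At 48 h it was 5.36% ± 0.575 in PNA2 (SD, n = 4), 2.24% ± 0.132 in siRNA (SD, n = 4) and 2.41% ± 0.568 in PBS libraries (SD, n = 6).

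The baseline order of the genes was read from the PBS libraries at 72 h, as the deposited value per kilobase of the principal transcript, so that levels can be set beside each other. The highest were the beta-ring subunit PSMB4 (3275 ± 199.1 per kb, SD, n = 5), the alpha-ring subunit PSMA7 (2544 ± 165 per kb) and the beta-ring subunit PSMB3 (2511 ± 102 per kb), and PSMA7 and PSMB3 did not differ beyond their spread. Among tested members the lowest were the 19S assembly chaperones PSMD5 (151 ± 12.7 per kb) and PSMD10 (185 ± 25.6 per kb). The 6 catalytic genes ran in the order PSMB7 (2252 ± 91.8 per kb), PSMB6 (1084 ± 88.9 per kb), PSMB5 (839 ± 86.6 per kb), PSMB8 (572 ± 45.6 per kb), PSMB9 (505 ± 47.1 per kb) and PSMB10 (472 ± 39.7 per kb). PSMB9 and PSMB10 did not differ beyond their spread, so the 3 immunoproteasome transcripts were present in these cells at levels below those of their standard counterparts. PSMA8, the alpha-ring subunit of the testis proteasome that takes the place of PSMA7, was also expressed, at 244 ± 31.0 per kb. All proteasome genes together made up 0.693% of the deposited values in PNA2 and 0.667% in PBS libraries at 72 h.

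The 48 h levels of 5 members are uncertain. PSMA1, PSMA2, PSMA6, PSMD9 and PSMB10 had 48 h PBS values of 0.161, 0.00847, 0.116, 0.121 and 0.414 times their 72 h values, where the median member had 1.27 times. In GENCODE 29 each of the 5 overlaps a protein-coding gene on the same strand that shares its exons (AC018523.2, AC010132.3, AL121594.1, AC069503.2 and AC040162.1). Their log2 changes in PNA2 libraries at 48 h carry this doubt: -0.25 for PSMA1, -0.43 for PSMA2, 0.10 for PSMA6, -0.16 for PSMD9 and 0.18 for PSMB10, none of them called (adjusted p from 0.218 to 0.707 by limma). It is not stated whether counting used the strand, so members that overlap a gene on the opposite strand are also uncertain: PSMC1 by 75.8% of its exons with NRDE2, PSMD7 by 30.7% with AC009120.2, PSMC3IP by 29.9% with MLX, PSMB8 by 20.6% with PSMB8-AS1 and PSMC5 by 19.5% with FTSJ3. The 48 h table also lists 42 PSM pseudogenes, of which 2 had a mean value of 10 or more.

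**Figure D1:**
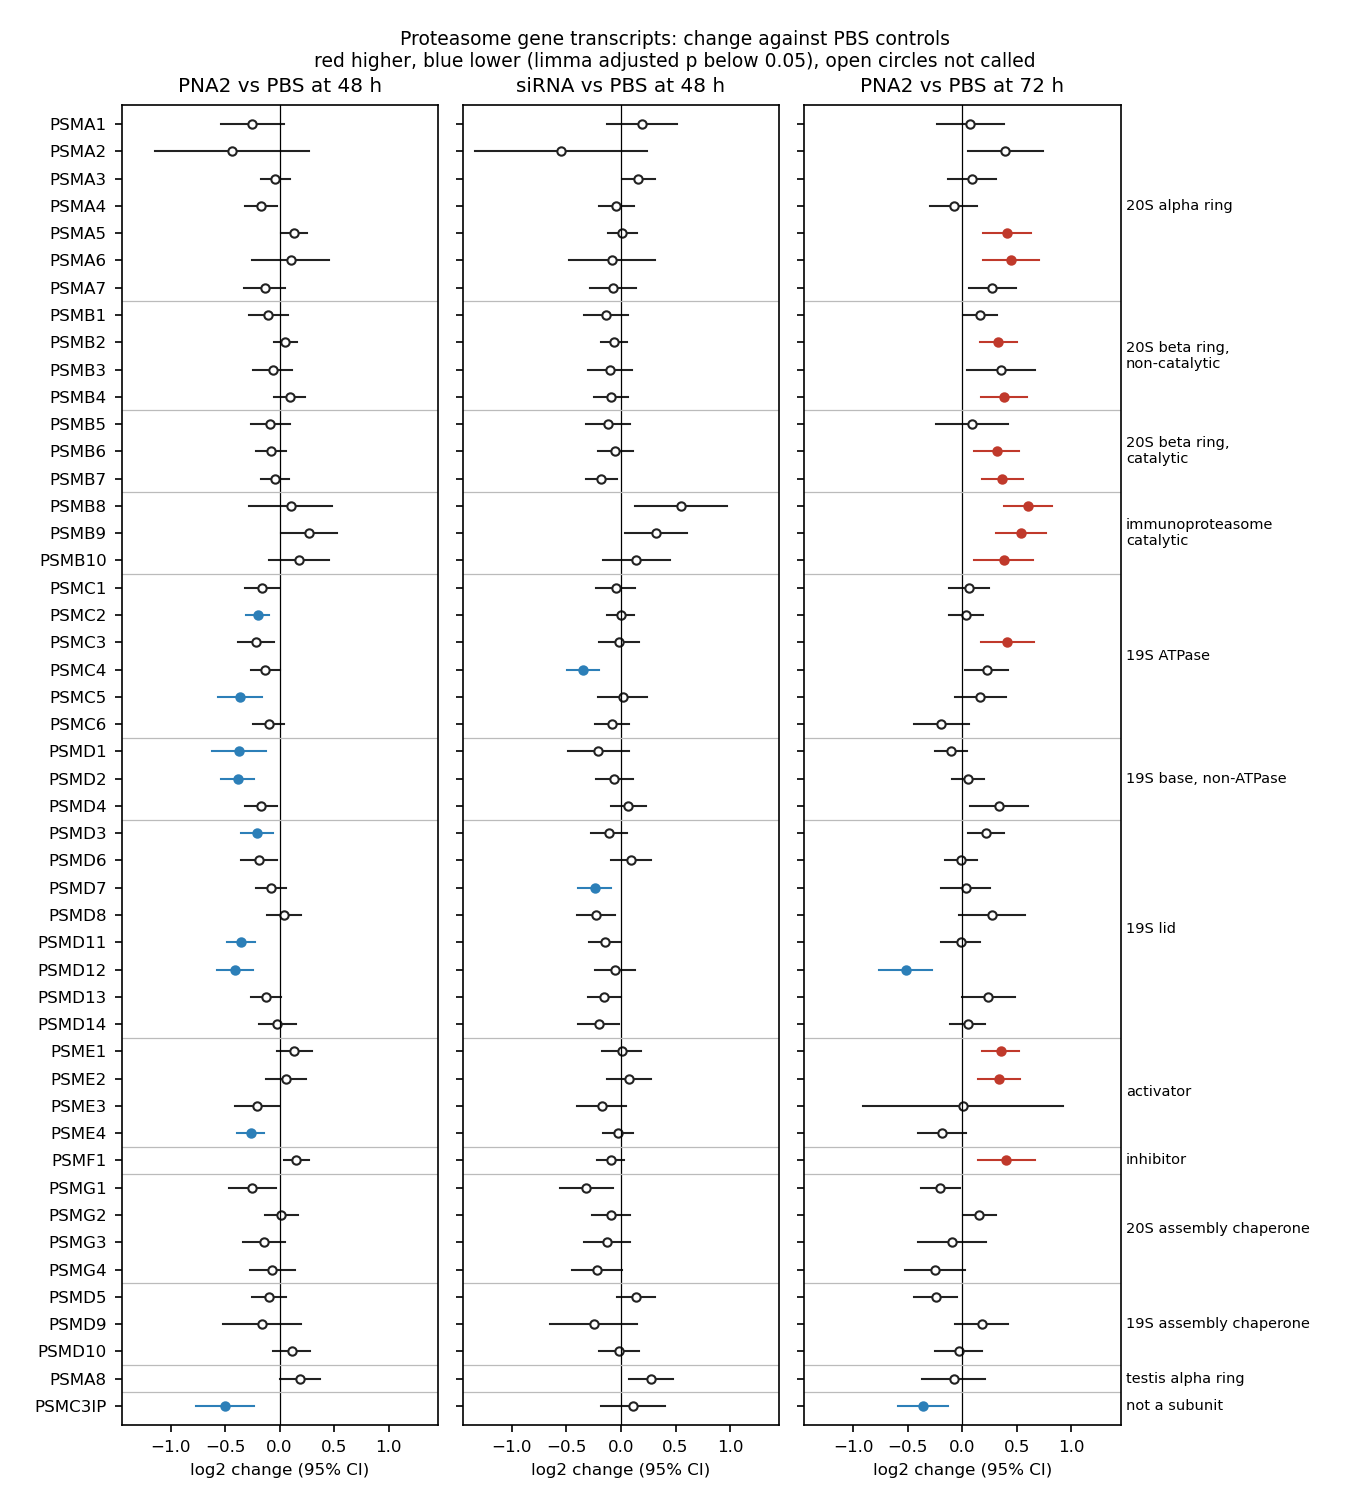
Log2 change (x axis) with its 95% confidence interval for each of the 48 tested proteasome genes (rows, grouped by role), for PNA2 against PBS at 48 h (n = 4 and 6), siRNA against PBS at 48 h (n = 4 and 6) and PNA2 against PBS at 72 h (n = 5 each); filled red is called higher, filled blue lower, open circles not called. At 48 h the calls in PNA2 are all lower and lie mostly among 19S genes, while at 72 h 13 of 15 calls are higher and lie mostly among 20S, immunoproteasome and activator genes.

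At 72 h the libraries labelled PNA2 had more RNA of 6 core subunits, of the 3 immunoproteasome subunits and of both PA28 genes, PSME1 and PSME2, than PBS libraries. Of 48 members, 13 were higher (27.1%, where 12.1% of all 11985 genes tested were higher) and 2 were lower (4.17%, where 11.7% of all genes were). The 13 were 6 of 14 standard 20S subunits, all 3 immunoproteasome subunits, 1 of 17 subunits of the 19S cap, 2 of 4 activators and the inhibitor PSMF1, and none of the 7 assembly chaperones was among them. The median log2 change was 0.16 over the members and -0.01 over all genes. By class it was 0.54 for the immunoproteasome, 0.32 for standard 20S, 0.05 for 19S and -0.09 for the chaperones. For 8 members (16.7%, where 10.0% of all genes did so) every PNA2 library was above every PBS library, and for none was every PNA2 library below (0%, where 9.18% of all genes did so). Calls are limma's, two-sided, at an adjusted p below 0.05 over all genes. At 72 h edgeR's quasi-likelihood test on the recovered reads gave the same 13 and 2 members (where 11.6% of all genes were higher and 12.0% lower), and DESeq2 gave 17 and 2 (where 14.2% were higher and 13.7% lower). In bulk RNA fewer cells of a kind and less RNA per cell cannot be told apart.

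The 72 h change also ran with transcript length over all genes, and the members are short, a split made after the values were seen. Among all genes with a principal transcript of at most 1500 bases, 31.5% were higher in PNA2 libraries and the median log2 change was 0.27. The share was 15.9% and the median 0.09 for lengths over 1500 and up to 3000 bases, and 4.69% and -0.11 above 3000 bases. Of the members, 9 of 21 in the shortest class were higher (42.9%, median 0.34), 2 of 16 in the middle class (12.5%, median 0.16) and 2 of 11 in the longest (18.2%, median -0.02). The members called higher in the longest class were PSMA5 and PSMF1. Standard 20S transcripts had a median length of 1012.5 bases (773 to 4411) and 19S transcripts of 1991 bases (1350 to 4448). The middle class held 2 standard 20S genes (median 0.20) and 9 cap genes (median 0.21), and the longest 2 standard 20S genes (median 0.17) and 6 cap genes (median 0.01). The part of length, and of the mitochondrial share given above, in the 72 h result was not tested.

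The immunoproteasome genes had the largest median change of the classes given above. PSMB8, which takes the place of PSMB5 and lies on chromosome 6 in the MHC region, had deposited values of 1039.6, 1025, 1142, 799 and 905 in PNA2 libraries, against 616, 636, 688, 576 and 699.7 in PBS libraries. Every PNA2 library was above every PBS library, with a log2 change of 0.60 ± 0.10 (SE), adjusted p = 0.00246 by limma. PSMB9, its neighbour and the substitute of PSMB6, had 579, 552, 714, 503 and 536 in PNA2 libraries, against 369, 452, 374, 367 and 411 in PBS libraries. Here too the groups did not overlap, with PNA2 replicate 3 highest, and the log2 change was 0.54 ± 0.11 (SE), adjusted p = 0.00464 by limma. PSMB10, the substitute of PSMB7, had 642, 719, 1027, 641 and 754 in PNA2 libraries, against 528, 581, 646, 588 and 532 in PBS libraries. The groups overlapped and PNA2 replicate 3 stood highest. The log2 change was 0.38 ± 0.13 (SE), adjusted p = 0.0482 by limma, and this call was lost in 10 of 16 alternatives, among them the omission of PNA2 replicate 3 (log2 change 0.26, adjusted p = 0.0504), of PNA2 replicate 2 or 5 and of any 1 PBS library, with adjusted p up to 0.104.

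PSME1 and PSME2, which form the PA28 ring that opens the core and is induced with the immunoproteasome, were higher too. PSME1 had 1881, 1859, 2217, 1774 and 1749.6 in PNA2 libraries, against 1548, 1354, 1439, 1566 and 1515 in PBS libraries. PSME2 had 1615, 1481, 1861, 1468 and 1567 in PNA2 libraries, against 1169, 1457, 1238, 1151 and 1318 in PBS libraries. Neither gene's groups overlapped, and the log2 changes were 0.35 ± 0.08 (SE), adjusted p = 0.00863 for PSME1 and 0.34 ± 0.09 (SE), adjusted p = 0.0185 for PSME2 by limma. Both lie outside the naming rule's 10 largest changes and are named after their values were seen, as the partners of the immunoproteasome. The other activators, PSME3, which acts in the nucleus, and PSME4, known from mouse testis for histone degradation, were not called at 72 h (adjusted p = 0.994 and 0.202 by limma).

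Promoters of 3 interferon-inducible members are shown for the letters of the interferon-stimulated response element, since these genes are known interferon targets, and PSMB4 is shown as a standard subunit with a match. The promoters of the other interferon-inducible members, PSMB9 and PSME1, hold no match. The 250 bases before the RefSeq gene start (GRCh38.p14) are printed 5′ to 3′ on the gene's strand, with a match to GAAANNGAAA on either strand in capitals. They are the PSMB8 promoter at chr6:32844680-32844929, minus strand, which holds no match, the PSMB10 promoter at chr16:67936851-67937100, minus strand, the PSME2 promoter at chr14:24146611-24146860, minus strand, and that of PSMB4, called higher at 72 h, at chr1:151399323-151399572, plus strand.
PSMB8 promoter: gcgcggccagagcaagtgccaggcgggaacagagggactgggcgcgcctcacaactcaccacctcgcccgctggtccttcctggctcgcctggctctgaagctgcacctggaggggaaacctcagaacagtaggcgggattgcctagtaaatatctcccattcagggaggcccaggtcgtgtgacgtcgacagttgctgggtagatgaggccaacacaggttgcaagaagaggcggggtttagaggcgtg
PSMB10 promoter: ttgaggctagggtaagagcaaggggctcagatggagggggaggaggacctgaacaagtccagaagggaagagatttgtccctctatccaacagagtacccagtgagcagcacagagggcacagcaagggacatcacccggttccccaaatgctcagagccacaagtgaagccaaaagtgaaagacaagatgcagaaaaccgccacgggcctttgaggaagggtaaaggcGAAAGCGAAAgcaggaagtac
PSME2 promoter: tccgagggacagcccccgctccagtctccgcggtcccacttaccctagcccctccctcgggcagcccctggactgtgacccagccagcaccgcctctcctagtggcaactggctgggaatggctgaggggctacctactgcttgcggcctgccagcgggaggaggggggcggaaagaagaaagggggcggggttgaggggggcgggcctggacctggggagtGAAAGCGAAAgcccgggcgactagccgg
PSMB4 promoter: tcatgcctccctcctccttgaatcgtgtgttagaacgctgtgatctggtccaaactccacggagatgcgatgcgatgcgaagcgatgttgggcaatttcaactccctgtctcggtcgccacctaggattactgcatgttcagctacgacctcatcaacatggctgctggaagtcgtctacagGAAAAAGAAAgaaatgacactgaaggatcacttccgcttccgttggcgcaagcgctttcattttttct

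PSMB10 and PSME2 hold the same GAAAGCGAAA within 28 bases of the gene start, PSMB10 with its first base 21 and PSME2 with its first base 28 bases before it. PSMB4 holds GAAAAAGAAA 68 bases before its start. The motif was found in 5 of 43 member promoters (11.6%: PSMA4, PSMB10, PSMB4, PSME2 and PSMG4) and in 3.07% of all 27305 promoters of that length. Of the 11 members called higher at 72 h that have a promoter in the table, 3 hold it, and of the 29 not called, 2 do. These are matches of letters, not sites.

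The ratio of each immunoproteasome gene to the standard gene it replaces was taken per length within each library. PSMB8 over PSMB5 was 1.22, 1.05, 0.759, 0.986 and 0.924 in PNA2 libraries at 72 h, against 0.755, 0.692, 0.643, 0.637 and 0.698 in PBS libraries. The groups did not overlap, with means of 0.988 ± 0.170 in PNA2 and 0.685 ± 0.0477 in PBS libraries (SD, n = 5 each). PSMB9 over PSMB6 averaged 0.546 ± 0.0529 in PNA2 and 0.468 ± 0.0535 in PBS libraries, and PSMB10 over PSMB7 averaged 0.212 ± 0.0272 in PNA2 and 0.210 ± 0.0261 in PBS libraries (SD, n = 5 each). Both of these overlapped between the groups, and PSMB6 and PSMB7 were themselves called higher. The ratio shows unequal change within a pair and no absolute level. At 48 h PSMB8 over PSMB5 ran from 0.173 to 0.563 in PNA2, 0.406 to 0.469 in siRNA and 0.229 to 0.368 in PBS libraries.

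**Figure D2:**
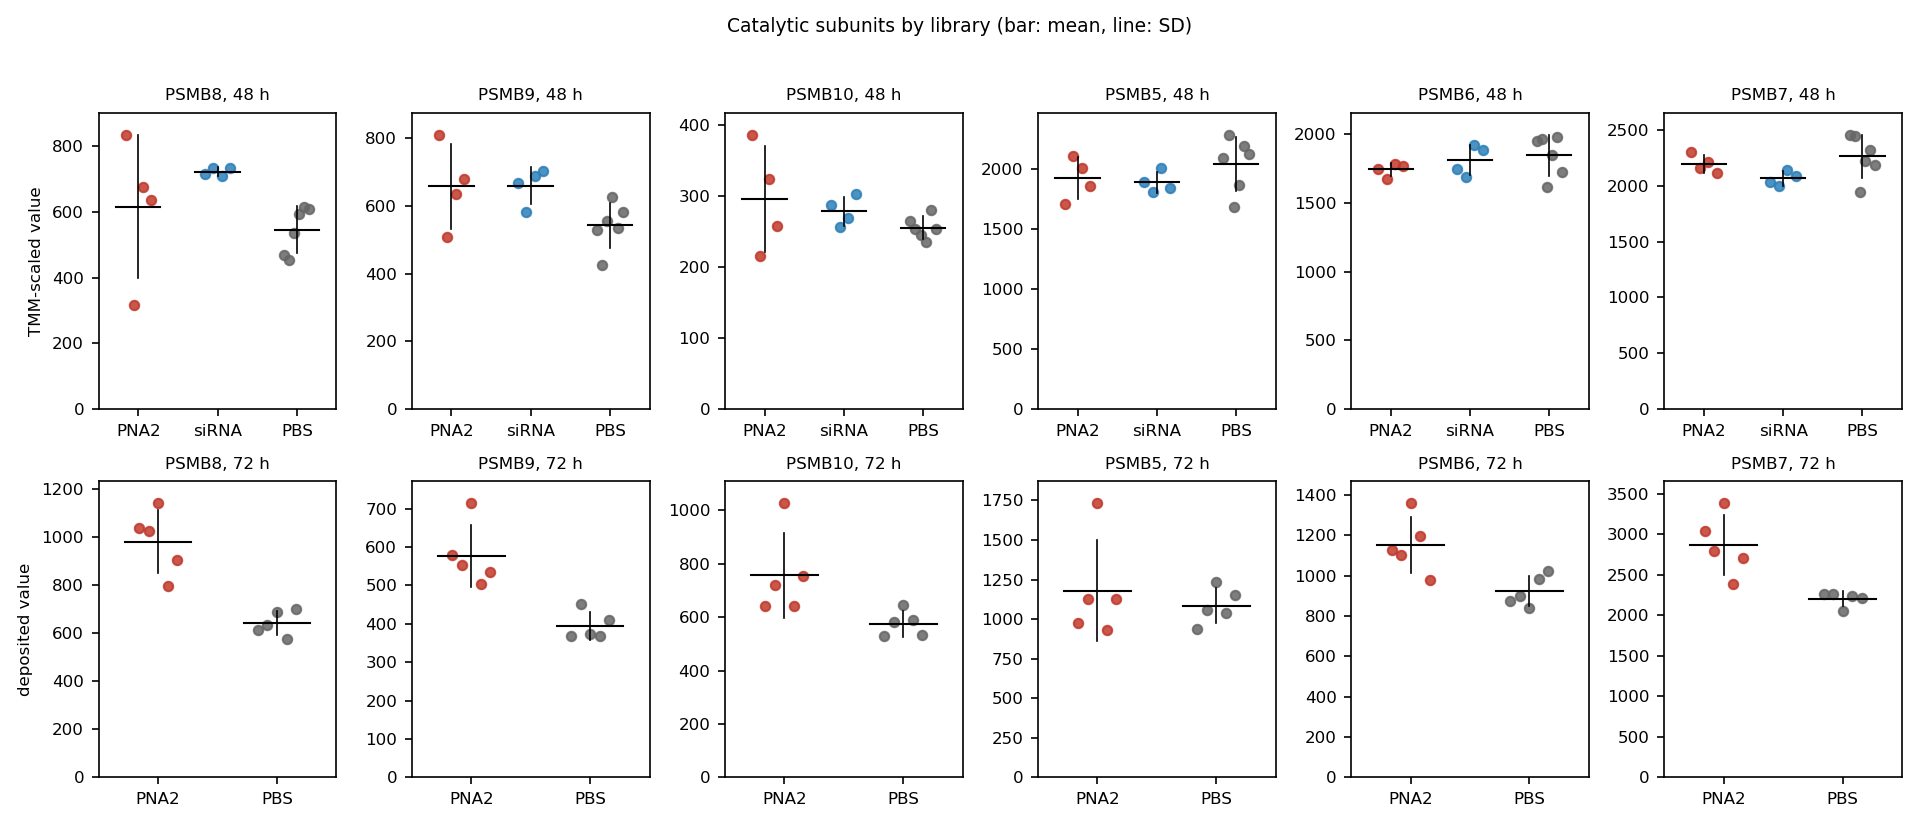
Value per library (y axis, TMM-scaled at 48 h in the upper row, deposited at 72 h in the lower row) of the 6 catalytic genes, with PNA2, siRNA and PBS libraries from left to right; points are libraries, bars means and lines SD. At 72 h all PNA2 libraries lie above all PBS libraries for PSMB8, PSMB9 and PSMB7, and at 48 h 1 PNA2 library lies low for PSMB8.

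Of the 14 standard core genes 6 were called higher. Of the standard catalytic genes, PSMB7, which holds the trypsin-like site, had 3038, 2797, 3384, 2391 and 2714 in PNA2 libraries, against 2268, 2261, 2050.2, 2239 and 2218 in PBS libraries. These did not overlap, and the log2 change was 0.37 ± 0.09 (SE), adjusted p = 0.0111 by limma. PSMB6, which holds the caspase-like site, overlapped between groups, with 1127, 1102, 1358, 1197 and 979.9 in PNA2 and 876, 899, 839.8, 985 and 1020.0 in PBS libraries. Its log2 change was 0.31 ± 0.09 (SE), adjusted p = 0.0312 by limma, and the call was lost in 7 of 16 alternatives, with adjusted p up to 0.0748, among them the omission of PBS replicate 1, 2 or 3 or of PNA2 replicate 1, 2 or 4. PSMB5, which holds the chymotrypsin-like site and is the main target of bortezomib, had 978, 1128, 1733, 933 and 1128 in PNA2 libraries, against 939.7, 1058, 1232, 1041 and 1154 in PBS libraries. It was not called, with a log2 change of 0.09 ± 0.15 (SE), adjusted p = 0.693 by limma, and PNA2 replicate 3 stood far above the other 4.

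Of the structural core genes that were called, PSMA6 and PSMA5 of the alpha ring and PSMB4 of the beta ring had the largest changes. PSMA6 had 1112, 1517, 1730.4, 1205 and 1514 in PNA2 libraries, against 1035, 1168, 943, 977 and 1013 in PBS libraries, with a difference of 0.45 ± 0.12 (SE), adjusted p = 0.0187 on the log2 scale. PSMA5 had 1732, 1965, 2287, 1621 and 1888 in PNA2 libraries, against 1447, 1251, 1636, 1403 and 1388 in PBS libraries, with 0.41 ± 0.10 (SE), adjusted p = 0.0134 on the log2 scale. Both overlapped between the groups. PSMB4 did not overlap, with 4116, 4356, 5101, 3527 and 3608 in PNA2 and 3016, 3424, 3241, 2937 and 3167 in PBS libraries, with 0.38 ± 0.10 (SE), adjusted p = 0.0165 on the log2 scale. PSMB2, a further beta-ring subunit outside the 10 largest changes, had a log2 change of 0.33 ± 0.08 (SE), adjusted p = 0.0104, all by limma. The remaining 7 standard core genes beside PSMB5 were not called, and their log2 changes ran from -0.08 for PSMA4 to 0.39 for PSMA2 (adjusted p = 0.0913).

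Of the 19S cap 1 gene was called higher and 1 lower at 72 h, and of the chaperones none was called. PSMC3, an ATPase of the cap, was the 1 cap gene called higher, at 2448, 2438, 3287, 1996 and 2361 in PNA2 libraries, against 1939.8, 1765, 1992, 1749.7 and 1873 in PBS libraries. No PNA2 library fell among the PBS libraries, and the log2 change was 0.41 ± 0.11 (SE), adjusted p = 0.0211 by limma (adjusted p = 0.0520 without PBS replicate 4). PSMF1, which encodes the inhibitor PI31 that binds the core, was higher with overlap between groups, at 2246, 1989, 2003, 1589.8 and 1621 in PNA2 and 1610.3, 1162, 1408, 1332 and 1627 in PBS libraries. Its log2 change was 0.40 ± 0.12 (SE), adjusted p = 0.0313 by limma, and the call was lost in 6 of 16 alternatives (adjusted p up to 0.0741), the omissions of PBS replicate 2, 3 or 4 and of PNA2 replicate 1, 2 or 3.

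PSMD12, a subunit of the lid, was the 1 proteasome subunit called lower at 72 h. It had 797, 713, 771, 987 and 889.7 in PNA2 libraries at 72 h, against 1138, 978, 1296, 1383 and 1168 in PBS libraries. Only PNA2 replicate 4 reached above the lowest PBS library, replicate 2, and the log2 change was -0.52 ± 0.11 (SE), adjusted p = 0.00737 by limma, kept in all 16 alternatives. PSMC3IP, the recombination factor, was lower as well, with a log2 change of -0.36 ± 0.10 (SE), adjusted p = 0.027 by limma, and it was not called without PBS replicate 1, 3 or 4.

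PNA2 replicate 3 was the highest of the 10 libraries for 25 of 48 members (52.1%, where it was so for 24.4% of all genes). Without it 11 members were called higher (where 10.6% of all genes were) and 2 lower (where 10.9% were), and the median log2 change was 0.10. PSMA5, PSMA6, PSMB2, PSMB4, PSMB7, PSMB8, PSMB9, PSMD12, PSME1 and PSME2 kept their calls in all 16 alternatives. The summed B-cell marker values moved with the comparison too, at 25127 to 29682 in PNA2 and 20581 to 22357 in PBS libraries, and their part in the result was not tested.

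The balance between core and cap was followed in each library, as the median log2 difference from the PBS mean over the 14 standard 20S genes less that over the 17 cap genes. PBS libraries lie near 0 by construction, from -0.05 to 0.05 at 72 h and -0.02 to 0.02 at 48 h. The PNA2 libraries at 72 h had differences of 0.22, 0.28, 0.36, 0.12 and 0.17. The PNA2 libraries at 48 h had 0.17, 0.31, 0.17 and 0.09, and the siRNA libraries 0.01, -0.07, 0.08 and 0.12. The core medians at 48 h include PSMA1, PSMA2 and PSMA6, whose 48 h levels are uncertain. All 9 PNA2 libraries thus stood above all PBS libraries of their time point. On the scales used this came by higher core transcripts at 72 h and by lower cap transcripts at 48 h. Which class moved at 48 h rests on the scaling. With 48 h values not rescaled 0 members were lower in PNA2 libraries (where 1.18% of all genes were). The median log2 change was then 0.10 over the members and 0.19 over all genes. Of the siRNA libraries, replicates 3 and 4 (0.08 and 0.12) also stood above all 48 h PBS libraries, and replicate 2 lay below 0. Replicate 4 of siRNA stood above PNA2 replicate 4 (0.09). No p is given, since the classes also differ in transcript length.

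**Figure D3:**
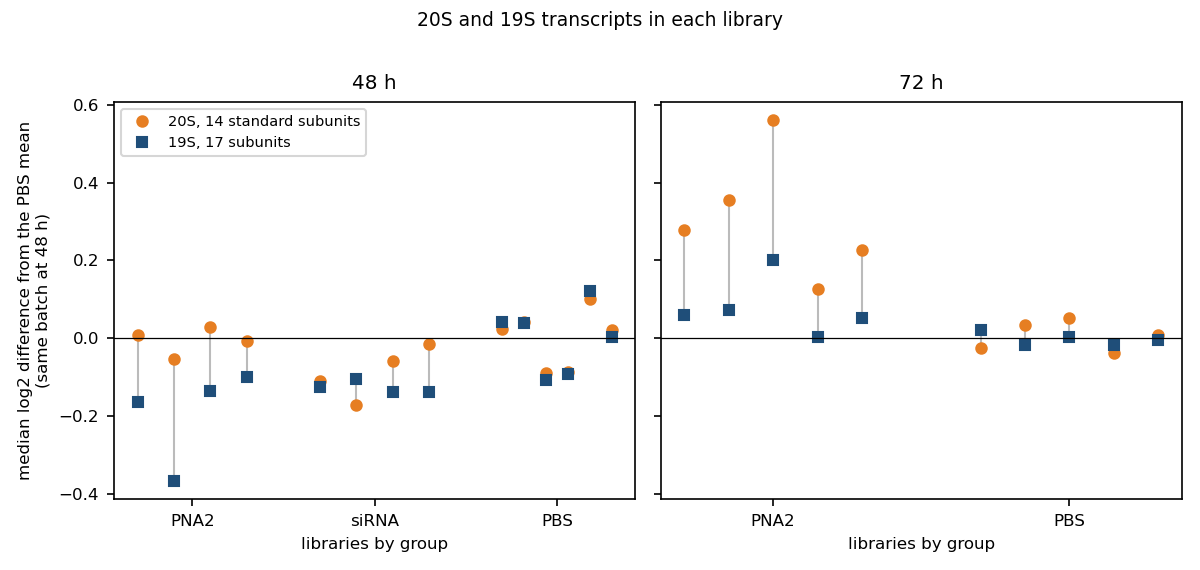
Median log2 difference from the PBS mean (y axis) over the 14 standard 20S genes (orange circles) and the 17 19S genes (blue squares) in each library, joined by a grey line, for PNA2, siRNA and PBS at 48 h (n = 4, 4 and 6) and PNA2 and PBS at 72 h (n = 5 each). The circle lies above the square in each PNA2 library, and at 72 h the differences run from 0.12 to 0.36 in PNA2 and from -0.05 to 0.05 in PBS libraries.

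At 48 h the libraries labelled PNA2 had less RNA of 7 of 17 cap subunits, and no member was higher. These calls rest on the scaling, since 0 members were lower with values not rescaled (where 1.18% of all genes were). Within batch B, 1 of the 2 batches, 0 members were lower too (where 3.37% of all genes were). The difference between the batches' PNA2 effects was called for 0 members. Of 48 members, 9 were lower (18.8%, where 8.57% of all 14136 genes tested were lower) and 0 were higher (where 8.11% were). At an unadjusted p below 0.05, 16 were lower (where 16.2% of all genes were) and 4 higher (where 15.8% were) by limma. The 9 were the 7 cap subunits, the activator PSME4 and PSMC3IP, and none of the 14 standard 20S subunits was among them. Those 14 include PSMA1, PSMA2 and PSMA6, whose 48 h levels are uncertain as given above. The median log2 change was -0.10 over the members and -0.00 over all genes, -0.19 over the cap genes and -0.07 over the standard 20S genes. For 6 members (12.5%, where 4.99% of all genes did so) every PNA2 library was below every PBS library, and for 0 every one was above (where 5.23% did so). Length ran with the change of all genes far less than at 72 h, with medians 0.04, -0.02 and -0.00 in the 3 length classes. Of the members, 6 of 11 in the longest class were lower (54.5%, where 9.27% of all genes were). In the middle class 2 of 16 were lower (12.5%, where 9.73% of all genes were). In the shortest class 1 of 21 was lower (4.76%, where 4.99% of all genes were).

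The called cap subunits were 3 of the lid, 2 of the base and 2 ATPases. PSMD12 of the lid had scaled values of 1303, 1146, 1349 and 1385 in PNA2 libraries, and PBS libraries had 1527 at the lowest, 1747 at the median and 1926 at the highest. The groups did not overlap, and the log2 change was -0.41 ± 0.08 (SE), adjusted p = 0.00297 by limma. PSMD12 was thus called lower at both times. PSMD11, another lid subunit, had 2637, 2498, 2686 and 2714 in PNA2 libraries, and PBS libraries had 3103 at the lowest, 3279.7 at the median and 3727 at the highest. All PNA2 libraries again lay below all PBS libraries, and the log2 change was -0.35 ± 0.06 (SE), adjusted p = 0.00174 by limma. PSMD3, also of the lid, overlapped and had a smaller log2 change of -0.21 ± 0.07 (SE), adjusted p = 0.0471, a call lost in 14 of 20 alternatives, including the omission of any 1 library but PBS replicate 3 or PNA2 replicate 4.

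PSMD2, a large base subunit that binds ubiquitin-like domains, had 8956, 8215, 9613 and 9465 in PNA2 libraries, and PBS libraries had 10467 at the lowest, 12049 at the median and 12604 at the highest. The groups did not overlap, and the log2 change was -0.38 ± 0.07 (SE), adjusted p = 0.0025 by limma. PSMD1, the other large base scaffold, had 2303, 1480.2, 2215 and 2291 in PNA2 libraries, and PBS libraries had 2128 at the lowest, 2736 at the median and 2935 at the highest. PNA2 replicate 2 was far below the rest and the groups overlapped, with a log2 change of -0.37 ± 0.12 (SE), adjusted p = 0.0412 by limma, a call lost in 12 of 20 alternatives, including the omission of PNA2 replicate 2 (log2 change -0.19, adjusted p = 0.0653) or of any 1 PBS library but replicate 3.

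Of the 6 ATPases PSMC5 and PSMC2 were called. PSMC5 had 2372, 1842, 2492 and 2639 in PNA2 libraries, and PBS libraries had 2439.5 at the lowest, 3076 at the median and 3196 at the highest. PNA2 replicate 2 was the lowest and 1 PBS library lay among the PNA2 values, with a log2 change of -0.37 ± 0.09 (SE), adjusted p = 0.0164 by limma. PSMC2 had 2251, 2264, 2329.8 and 2245 in PNA2 libraries, and PBS libraries had 2479 at the lowest, 2634 at the median and 2750.4 at the highest, with no overlap and a log2 change of -0.20 ± 0.05 (SE), adjusted p = 0.0155. PSME4, the nuclear activator, had 2584, 2239, 2478 and 2557 in PNA2 libraries, and PBS libraries had 2789 at the lowest, 2999 at the median and 3067 at the highest, with no overlap and a log2 change of -0.27 ± 0.06 (SE), adjusted p = 0.00649. PSMC3IP, no subunit, had the largest change of the called members, -0.50 ± 0.13 (SE), adjusted p = 0.0142, each by limma, and had a log2 change of -0.31 without PNA2 replicate 2.

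The catalytic genes were not called at 48 h. For the standard ones the log2 changes were -0.08 for PSMB5, -0.08 for PSMB6 and -0.04 for PSMB7 (adjusted p from 0.439 to 0.689 by limma). PSMB8 had 835, 317, 678 and 638 in PNA2 libraries, and PBS libraries had 454 at the lowest, 566 at the median and 615 at the highest. PNA2 replicate 1 was the highest of all and replicate 2 the lowest, so that the mean change was small against its spread (log2 change 0.10 ± 0.18 (SE), adjusted p = 0.729 by limma). PSMB9 had 809, 508, 633 and 679 in PNA2 libraries, and PBS libraries had 424 at the lowest, 545 at the median and 627 at the highest, with a log2 change of 0.27 ± 0.12 (SE), adjusted p = 0.137. PSMB10, of uncertain level at 48 h, had a log2 change of 0.18 ± 0.13 (SE), adjusted p = 0.363.

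PNA2 replicate 2 decides whether any member is called higher at 48 h. It was the lowest of the 14 libraries for 23 of 48 members (47.9%, where it was so for 23.7% of all genes). Without it 7 members were higher (where 8.44% of all genes were) and 7 lower (where 9.21% were). The 7 higher were PSMA5, PSMB8, PSMB9, PSMB10, PSME1, PSME2 and PSMF1, each of which was also called higher at 72 h. How many of all genes were called higher in both was not counted, so no repeat between the times is read from this. Without PNA2 replicate 2 the log2 changes were 0.38 for PSMB8 (adjusted p = 0.0148), 0.39 for PSMB9 (adjusted p = 0.0164) and 0.33 for PSMB10 (adjusted p = 0.0405) by limma.

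With the deposited values not rescaled, 0 members were lower at 48 h (where 1.18% of all genes were) and 2, PSMB9 and PSMF1, were higher (where 14.2% were), and the median over all genes was itself 0.19 and over the members 0.10. Within batch A (PNA2 1 and 2) 9 members were lower, 8 of them the same, and 0 higher (where 7.19% of all genes were lower and 6.25% higher). Within batch B (PNA2 3 and 4) 0 were lower and 0 higher (where 3.37% were lower and 2.94% higher), although the 9 members called over both batches had negative changes there, such as -0.25 for PSMD11, -0.25 for PSMD12 and -0.27 for PSMD2 against -0.45, -0.56 and -0.50 in batch A. The difference between the batches' PNA2 effects was called for 0 members by limma (where 1.36% of all genes were higher and 1.22% lower), and 8 reached an unadjusted p below 0.05 (where 20.9% of all genes did). Without PNA2 replicate 1, which leaves batch A with 1 PNA2 library, assumed to vary like the others, 14 members had the lower PNA2 effect in batch A and 0 the higher, where 16.6% of all genes had the lower and 12.8% the higher.

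**Figure D4:**
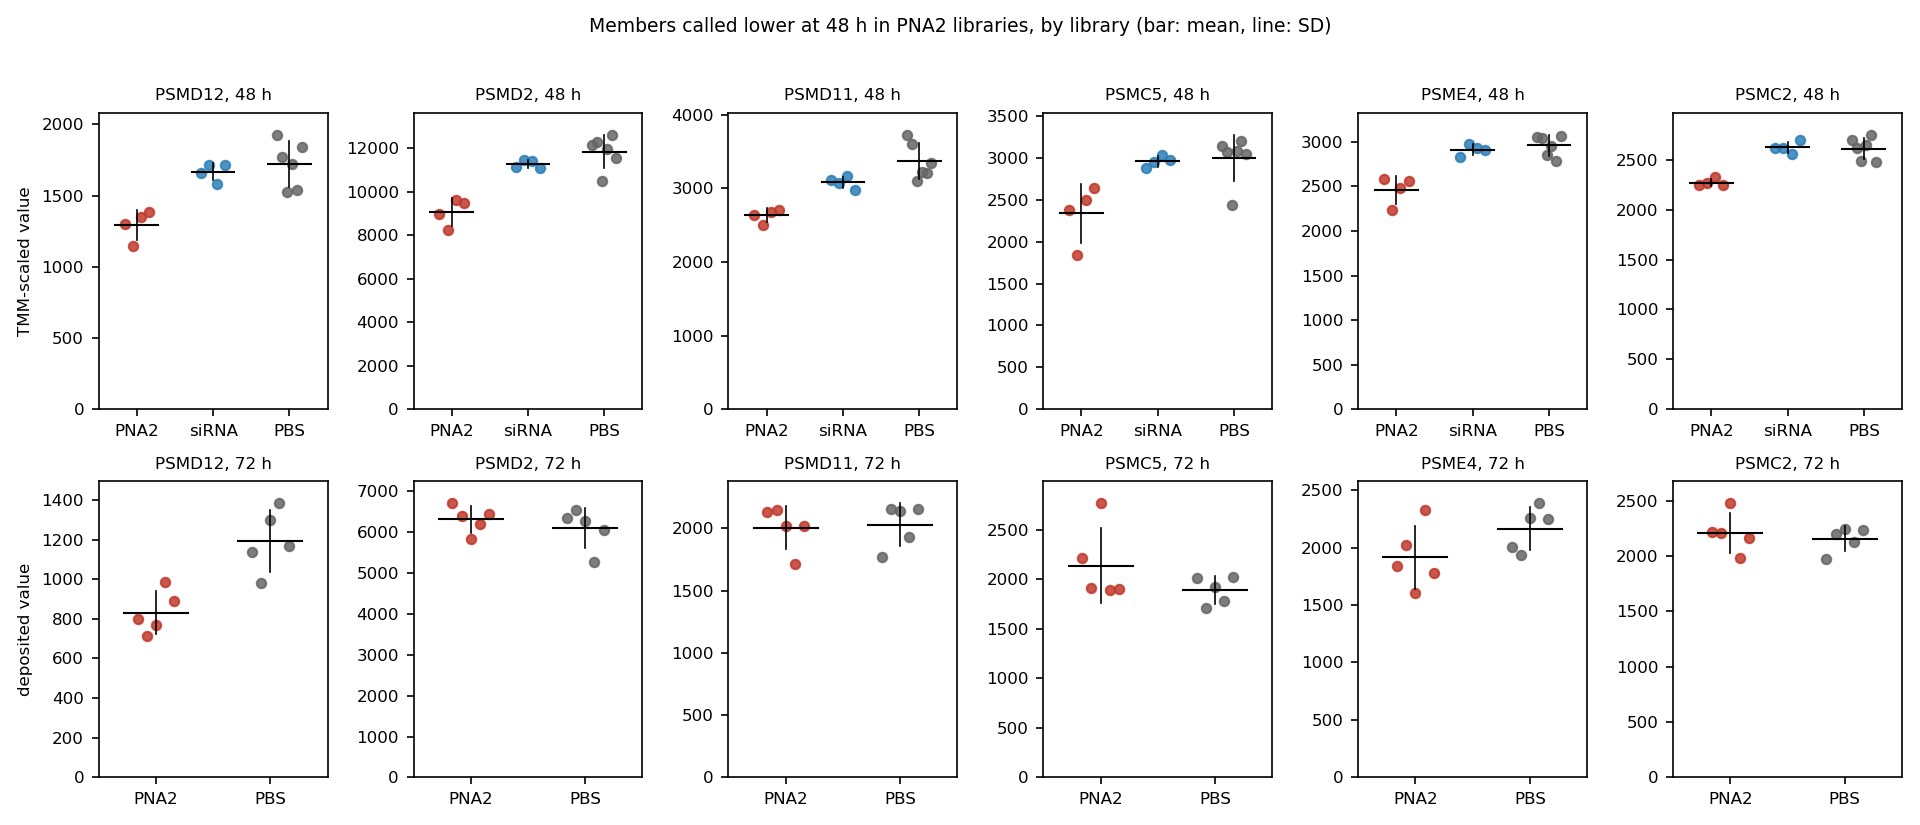
Value per library (y axis, TMM-scaled at 48 h in the upper row, deposited at 72 h in the lower row) of 6 members called lower at 48 h in PNA2, with PNA2, siRNA and PBS libraries from left to right; points are libraries, bars means and lines SD. At 48 h the PNA2 libraries lie below the PBS libraries, with 1 PBS library among them for PSMC5. At 72 h the groups of PSMD2, PSMD11 and PSMC2 overlap, and PSMD12 stays lower with 1 PNA2 library above the lowest PBS library.

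The PSMD12 and PSME4 promoters are shown as those of genes lower at 48 h that hold letters of the antioxidant response element, the kind of site that NFE2L1 and NFE2L2 bind with small MAF proteins. PSMB9 is shown beside them as a member higher at 72 h with the same letters. A match to TGACNNNGC on either strand is in capitals, in the 250 bases before the RefSeq gene start (GRCh38.p14). PSMD12 lies at chr17:67366578-67366827, minus strand, PSME4 at chr2:53970994-53971243, minus strand and PSMB9 at chr6:32853942-32854191, plus strand.
PSMD12 promoter: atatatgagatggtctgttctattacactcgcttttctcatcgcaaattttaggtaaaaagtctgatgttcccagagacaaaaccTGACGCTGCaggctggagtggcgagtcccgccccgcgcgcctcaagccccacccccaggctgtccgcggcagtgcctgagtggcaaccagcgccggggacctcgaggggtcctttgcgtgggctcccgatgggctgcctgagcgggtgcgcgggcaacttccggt
PSME4 promoter: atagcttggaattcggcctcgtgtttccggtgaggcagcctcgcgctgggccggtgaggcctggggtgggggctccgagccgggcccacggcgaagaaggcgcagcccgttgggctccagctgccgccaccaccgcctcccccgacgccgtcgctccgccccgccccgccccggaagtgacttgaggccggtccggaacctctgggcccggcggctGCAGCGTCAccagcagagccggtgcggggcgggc
PSMB9 promoter: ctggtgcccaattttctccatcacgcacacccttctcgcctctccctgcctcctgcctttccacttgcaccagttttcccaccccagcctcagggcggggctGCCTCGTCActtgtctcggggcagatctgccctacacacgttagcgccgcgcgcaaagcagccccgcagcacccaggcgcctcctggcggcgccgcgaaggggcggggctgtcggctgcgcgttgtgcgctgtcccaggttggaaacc

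The match in PSMD12 reads TGACGCTGC on the gene's strand, 165 bases before the start, while those of PSME4 and PSMB9 lie on the other strand and read GCAGCGTCA and GCCTCGTCA as printed. The motif was found in 11 of 43 member promoters (25.6%), against 11.03% of all 27305 promoters. It was in 3 of the 9 promoters of members lower at 48 h and in 8 of the 33 of members not called then. At 72 h it was in 3 of the 11 promoters of members higher, 1 of the 2 lower and 7 of the 29 not called. The E-box CACGTG, which MYC binds with MAX, was found in 3 of 43 member promoters (6.98%: PSMB3, PSMD9 and PSME3), against 6.49% of all promoters, and in 0 of the members called in either PNA2 comparison. No matches of different motifs overlapped in a member promoter, and 6 members had no promoter in the table.

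The siRNA libraries, in which MYC RNA was lower, had few proteasome calls at 48 h. Of 48 members 2 were lower (4.17%, where 8.13% of all genes were) and 0 higher (where 9.30% were). At an unadjusted p below 0.05, 8 were lower (where 15.6% of all genes were) and 4 higher (where 16.3% were) by limma. The median log2 change was -0.07 over the members and -0.00 over all genes. Groups did not overlap for 3 members above PBS (6.25%, where 8.72% of all genes did so) and for 1 below (2.08%, where 6.89% did so).

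The lower members were PSMC4 and PSMD7. PSMC4, an ATPase of the cap, had 2153, 2233, 2235 and 2076 in siRNA libraries, and PBS libraries had 2368 at the lowest, 2704 at the median and 2942 at the highest. The groups did not overlap, and the log2 change was -0.35 ± 0.07 (SE), adjusted p = 0.0036 by limma. PSMD7, a lid subunit whose exons overlap another gene, had 2017, 1864, 1813 and 1923 in siRNA libraries, and PBS libraries had 1932 at the lowest, 2193 at the median and 2469.5 at the highest. The groups overlapped, and the call (log2 difference -0.24 ± 0.07 (SE), adjusted p = 0.0305 by limma) was lost in 9 of 19 alternatives, including the omission of PBS replicate 1 or 2 or of siRNA replicate 2, 3 or 4. PSMB8 had 715, 735, 709 and 735 in siRNA libraries, which did not overlap the PBS libraries, but the log2 difference of 0.55 ± 0.20 (SE), adjusted p = 0.0674 missed the threshold by limma, which it and PSMB9 passed without PBS replicate 4. Neither PSMB9 (0.33 ± 0.13 (SE), adjusted p = 0.107) nor PSMB10 (0.14 ± 0.14 (SE), adjusted p = 0.551) was called on its log2 change. The standard catalytic genes had -0.12 for PSMB5, -0.05 for PSMB6 and -0.18 for PSMB7 (adjusted p from 0.0804 to 0.677).

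All siRNA libraries are in batch A, and the deposited adjustment made the means of the batches nearly equal. The siRNA difference and the adjustment therefore cannot be told apart against the batch B controls. Within batch A, whose libraries share 1 adjustment, the same members PSMC4 and PSMD7 were lower and 0 were higher. In that fit 2377 of all 14136 genes were called in either direction. When only siRNA and PBS libraries were fitted, 3 members (PSMA8, PSMB8 and PSMB9) were higher and 9 lower, where 32.5% of all genes were called in either direction. With values not rescaled 4 (PSMA3, PSMA8, PSMB8 and PSMB9) were higher (where 15.0% of all genes were) and 0 lower (where 0.523% were), and the median over all genes was 0.22.

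The PNA2 and siRNA libraries were compared directly at 48 h, in the same fit. The PBS libraries enter this comparison through the batch term and the estimate of spread. Of 48 members 3 were higher in PNA2 than in siRNA libraries (6.25%, where 11.5% of all genes were) and 8 lower (16.7%, where 12.4% were). Higher were PSMD8 of the lid (0.27 ± 0.09 (SE), adjusted p = 0.0364), the inhibitor PSMF1 (0.25 ± 0.06 (SE), adjusted p = 0.0101) and the ATPase PSMC4 (0.22 ± 0.07 (SE), adjusted p = 0.0404). Lower were PSMC3IP (-0.61 ± 0.15 (SE), adjusted p = 0.00818), PSMC5 (-0.38 ± 0.11 (SE), adjusted p = 0.0228), PSMD12 (-0.36 ± 0.09 (SE), adjusted p = 0.011) and PSMD2 (-0.32 ± 0.08 (SE), adjusted p = 0.0115), by limma. Also lower were PSMD6 (-0.28), PSME4 (-0.24), PSMD4, which binds ubiquitin chains (-0.24), and PSMC2 (-0.20), with adjusted p from 0.0191 to 0.0447.

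PSMD12 had 1303, 1146, 1349 and 1385 in PNA2 libraries, against 1658, 1715, 1585 and 1715 in siRNA libraries, and PSMD2 had 8956, 8215, 9613 and 9465 in PNA2 libraries, against 11119.8, 11430.5, 11387 and 11090.0 in siRNA libraries. Neither overlapped, so the lower cap transcripts of PNA2 libraries were a measured difference between these groups of libraries for these genes. Reagent and electroporation cannot be told apart in it, and both calls were lost with values not rescaled. Every PNA2 library was below every siRNA library for 14 members (29.2%, where 14.2% of all genes did so) and above for 4 (8.33%, where 13.6% did so). Of the catalytic genes none was called, with log2 changes from -0.45 for PSMB8 (95% interval -0.91 to 0.00) to 0.14 for PSMB7 (95% interval -0.02 to 0.30). Without PNA2 replicate 1 PSMB8 was called lower (log2 change -0.80, adjusted p = 0.00277 by limma). With values not rescaled 0 members were higher (where 4.95% of all genes were) and 1 lower (where 7.68% were), and without PNA2 replicate 2 there were 6 higher (where 13.3% were) and 4 lower (where 14.5% were). In that fit PSMC3IP had a log2 change of -0.34 and PSMC5 of -0.22. PSMF1, PSMC3IP, PSMD12 and PSMD2 kept their calls when any 1 PNA2 or siRNA library was left out, while PSMC4 lost its call whichever was left out, and the other 6 lost theirs for 1 or more of the libraries. The comparisons of PNA2 and of siRNA with PBS at 48 h share the same 6 controls.

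PSME3 and PSMA8 are named after their values were seen. PSME3, which encodes the nuclear activator PA28 gamma, had 2678, 2767, 2629, 723 and 788 in PNA2 libraries at 72 h, against 2103, 1413, 1254, 2588 and 1131 in PBS libraries. The libraries of each group were split into high and low ones, with SDs on the log2 scale of 1.00 in PNA2 and 0.51 in PBS libraries, where the median member had 0.19 and 0.12. No difference between the groups could be read from it (log2 change 0.01 ± 0.42 (SE), adjusted p = 0.994 by limma). PSMA8 had 323, 384, 409, 509 and 462 in PNA2 libraries at 72 h, against 368, 409.7, 432, 478 and 509.6 in PBS libraries, and overlapped. At 48 h it had 998, 740.4, 767 and 785 in PNA2, 937, 829.1, 845 and 836 in siRNA, and PBS libraries had 637 at the lowest, 720.0 at the median and 775 at the highest. The siRNA libraries lay above the PBS libraries, with a log2 change of 0.28 ± 0.10 (SE), adjusted p = 0.0579 by limma, which missed the threshold.

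**Figure D5:**
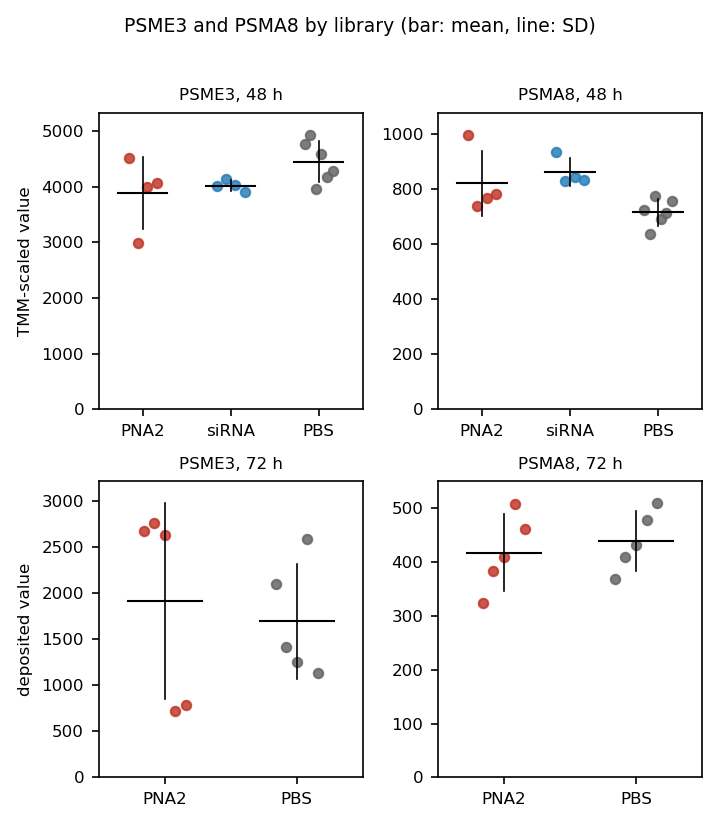
Value per library (y axis, TMM-scaled at 48 h in the upper row, deposited at 72 h in the lower row) of PSME3 and PSMA8, with PNA2, siRNA and PBS libraries from left to right; points are libraries, bars means and lines SD. At 72 h PSME3 splits into high and low libraries in both groups (723 to 2767 in PNA2 and 1131 to 2588 in PBS), and PSMA8 overlaps between groups at 72 h.

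Genes that work with the proteasome were counted by lists. Of 19 genes for ubiquitin and its activation, 6 were higher and 3 lower in PNA2 libraries at 72 h (median log2 change 0.18), where 12.1% of all genes were higher and 11.7% lower. Higher were, among others, RPS27A (0.70), which encodes ubiquitin fused to a ribosomal protein, and the conjugating enzymes UBE2C (0.43) and UBE2S (0.41), with adjusted p from 0.00131 to 0.0152 by limma. Lower were, among others, the conjugating enzyme UBE2G2 (-0.71) and the activating enzyme UBA6 (-0.64). At 48 h 4 were higher (where 8.11% of all genes were), among them RPS27A (0.53), and UBE2G2 (-0.37) and UBE2G1 (-0.35) were lower (where 8.57% were). In siRNA libraries 0 were higher (where 9.30% of all genes were) and 3 lower (where 8.13% were), among them RPS27A (-0.32) and UBE2G2 (-0.27). RPS27A has near-identical copies, and its counts are uncertain for that reason.

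Of 17 genes of MHC class I antigen processing, 5 were higher (where 12.1% of all genes were) and 2 lower (where 11.7% were) in PNA2 libraries at 72 h (median 0.13). TAP1, the peptide transporter gene that lies head to head with PSMB9, had a log2 change of 0.46 ± 0.07 (SE), adjusted p = 0.00136 by limma, and HLA-E (0.28) and HLA-C (0.27) were among the others that were higher. The peptidase ERAP2 (-0.80) and NLRC5 (-0.30), the activator of class I genes, were lower. In siRNA libraries at 48 h 8 of 16 tested were higher (where 9.30% of all genes were) and 0 lower (where 8.13% were), with a median of 0.26, among them HLA-F (0.80), HLA-E (0.71), TAPBPL (0.51), HLA-B (0.49), the interferon regulatory factor IRF1 (0.44) and B2M (0.41). In PNA2 libraries at 48 h 1 of 16 was higher (where 8.11% of all genes were), B2M (0.39), and 2 lower (where 8.57% were), NLRC5 (-0.35) and the chaperone CALR (-0.22). Set directly against siRNA, 0 were higher (where 11.5% of all genes were) and 6 lower (where 12.4% were) in PNA2 libraries, such as HLA-B (-0.64 ± 0.08 (SE), adjusted p = 6.73e-05 by limma). Classical HLA genes share sequence with one another, and reads may be split among them.

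Of 13 proteasome factors outside the PSM names, the deubiquitinases USP14 (-0.46) and UCHL5 (-0.42), which trim chains at the cap, were lower in PNA2 libraries at 72 h (where 11.7% of all genes were), and 0 were higher (where 12.1% were), with a median of -0.10. At 48 h the ubiquitin receptor ADRM1 was lower in PNA2 libraries (-0.24 ± 0.06 (SE), adjusted p = 0.0167 by limma), and USP14 (-0.35) and PITHD1 (-0.25) were lower in siRNA libraries. Of 12 genes of the transcriptional control of proteasome genes, NFYA was lower at 72 h (-0.24), NFYC higher (0.21) and MAFK lower (-0.39) in PNA2 libraries at 48 h, and MAFF higher (0.91) and MAFK lower (-0.74) in siRNA libraries. NFE2L1 itself was called in none of the 4 comparisons, with log2 changes of -0.07 in PNA2 at 72 h, 0.13 in PNA2 at 48 h and 0.13 in siRNA. Of 14 shuttle and p97 genes 2 were higher at 72 h, FAF1 (0.22) and UBQLN4 (0.17), and 2 lower at 48 h in PNA2 libraries, UBXN1 (-0.25) and NSFL1C (-0.20), while UBQLN4 was lower in siRNA libraries (-0.25). For these 3 lists too, the shares over all genes called in 1 direction ran from 8.11% to 12.1%.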

How the data were processed

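RNA was prepared with TruSeq stranded kits, named as both total RNA and mRNA, and sequenced on a NextSeq 500, per the labels' protocols. The submitters' processing notes name GRCh38 and, in no order, DESeq2, HTSeq 0.11.0, SAMtools 1.7, HISAT2 2.2.1 and Trimmomatic. The deposited 72 h signal is a read count over 1 size factor per library (0.730 to 1.187), a division made by the authors. Undone, it returned whole reads for 100% of values, to within 0.01. The 48 h table as deposited holds other values, read counts that the authors adjusted per gene and batch and did not divide by depth. At 48 h 21877 genes were not whole, 39664 were whole, and 5099 had values below 0 (lowest -223.8). No label names the batches. They were told apart by tied values, which ran from 18.1% to 30.7% of low values within a batch and were 0% between batches. Batch A held PNA2 1 and 2, all siRNA libraries and PBS 1, 2 and 4, and batch B held PNA2 3 and 4, PBS 3 and the 2 PBS columns without a number of their own.

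Values at 48 h were set to at least 0 and divided by a TMM scale (edgeR 4.0.16). Log2 of the value plus a pseudocount of 1 was fitted by limma 3.58.1 (R 4.3.3) on group and batch at 48 h, and on group alone at 72 h, so that fold changes of low genes are understated. The filter asked for 10 or more in at least 4 of the 48 h libraries (14136 genes passed) or 5 of the 72 h libraries (11985 genes). P-values were two-sided, with Benjamini-Hochberg adjustment over every gene that passed and a threshold of 0.05. On the recovered 72 h reads edgeR's quasi-likelihood test called 2837 genes and DESeq2 1.42.0 called 3342, against 2849 with limma. Values per kilobase used the principal transcript of GENCODE 29, and promoters came from RefSeq (GRCh38.p14), of which 41 of 43 members' starts were found in a GENCODE transcript on the same strand.

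The members and lists were chosen with earlier results of these data known. The text names MYC, PSMB5 to PSMB10, the 10 called members with the largest absolute change per comparison, and up to 6 called genes per list and comparison, of which some are not reported here. PSMB2, PSME1, PSME2, PSME3, PSME4 and PSMC3IP at 72 h, PSMA8, NFE2L1 and members given for their baseline level or uncertain counts are named outside this rule, after their values were seen. The main 48 h design names the batches although the labels do not. Alternatives were other scalings, filters, pseudocounts, tools, subsets of libraries and a replicate block. No set test was run, and the fit was tested on simulated data.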

Additional observations from a re-analysis of the deposited data

Results flagged for a closer look

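Over 26 genes and the 5 groups, 130 sets of libraries were checked for 1 library far from the others, of which chance flags about 1 in 20, and 6 were found. PSMB5 in PNA2 replicate 3 at 72 h had 1733, with the next library at 1128. PSMB7 in PBS replicate 3 at 72 h had 2050.2, below the next at 2218. At 48 h PSMD1 in PNA2 replicate 2 had 1480.2, with the next at 2215, PSMC5 in PBS replicate 3 had 2439.5, with the next at 3045, and siRNA replicate 3 had 2070.2 for PSMA5, below the next at 2189, and 2802 for PSMC3, above the next at 2732. The siRNA gaps are small in size because the 4 libraries lie close together.

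The ATPases PSMC3 and PSMC5 and the lid subunit PSMD3 had PNA2 changes of opposite sign at the later and the earlier time. The log2 changes were 0.41 at 72 h and -0.22 at 48 h for PSMC3, 0.16 and -0.37 for PSMC5, and 0.21 and -0.21 for PSMD3. For none of these genes were both changes called: PSMC3 was called only at 72 h, and PSMC5 and PSMD3 only at 48 h. The PSMD3 call was lost in 14 of 20 alternatives. The difference between the times was not tested, since the tables were normalized separately.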

How the results depend on the processing

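At 72 h the counts of 13 members higher and 2 lower stayed within 1.5 times under each change of tool, scale, filter and pseudocount, and when 1 library was left out they ran from 10 to 17 higher and 1 to 3 lower. For PNA2 against PBS at 48 h the 9 lower members became 4 with the fit limited to these groups, 0 within batch B, and 2 higher and 0 lower with values not rescaled. Calls over all genes, 2358 in the main fit, were 1033, 892 and 2181 in those fits, in that order. When 1 library was left out, 0 to 7 members were higher and 7 to 11 lower. For siRNA against PBS the 2 lower members became 1 with no batch term and 1 with no filter on low values, 3 higher and 9 lower in the fit of these groups alone, and 4 higher and 0 lower with values not rescaled. Over all genes the calls were 2464 in the main fit and, in the same order, 1201, 1994, 4595 and 2198. Leaving out 1 library gave 0 to 2 higher and 1 to 4 lower members. For PNA2 against siRNA the 3 higher and 8 lower members became 1 higher with no batch term, 1 higher within batch A, 1 higher and 3 lower with no filter, and 0 higher and 1 lower with values not rescaled. Calls over all genes were 3376 in the main fit and, in the same order, 2782, 3128, 2846 and 1785. When 1 library was left out, 1 to 6 members were higher and 4 to 9 lower. The difference of the batches' PNA2 effects gave 0 to 1 higher and 0 to 14 lower members in the same way. No named result changed sign while called.

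Same-numbered libraries had correlations of their deviations between -0.352 and 0.0913 at 48 h and between -0.0438 and 0.108 at 72 h. Pairs of different number were not computed as a reference, so this does not decide whether replicate numbers pair the libraries. With the replicate number as a block, members called were 12 higher and 2 lower at 72 h, where 2769 of all genes were called (2849 without it). The 48 h block, with the controls that carry no number left out, gave 3 lower for PNA2 against PBS, 1 lower for siRNA against PBS, and 0 higher and 2 lower for PNA2 against siRNA. Calls over all genes fell as well. They went from 2358 to 866 for PNA2 against PBS, from 2464 to 998 for siRNA against PBS and from 3376 to 1826 for PNA2 against siRNA. The same libraries without the block term, an alternative chosen after seeing the data, gave 6 lower for PNA2 against PBS, where 1804 of all genes were called. The cause of these changes was not tested. Whole reads and depth are known only at 72 h.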
